A study of Mus musculus with 24 samples.

Results

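The genes described here encode 10 secreted proteins of the extracellular matrix that are commonly measured in fibrosis: fibronectin (Fn1), periostin (Postn), tenascin C (Tnc), osteonectin (Sparc), thrombospondin 1 and 2 (Thbs1 and Thbs2), biglycan (Bgn), decorin (Dcn), lumican (Lum) and fibromodulin (Fmod). They were chosen by symbol from the deposited expression table, which held all 10 of them among 14159 genes with a symbol. RNA was sequenced from whole quadriceps muscle of female mice of the strain C57BL/6 (B6) or MRL/MpJ (MRL), aged 6 to 8 weeks at the time of surgery. Muscle was taken 21 days after volumetric muscle loss, an injury in which a 3 mm by 3 mm piece of muscle is cut out. The study does not state the age of the uninjured mice separately. In each strain the gap was filled with saline vehicle (the control injury), with a powder of decellularized porcine small intestine (ECM, for extracellular matrix) or with polyethylene powder (PE), and a further group of each strain was uninjured. Each of the 8 groups had 3 libraries, 24 in all. MRL is an inbred strain prone to autoimmunity, and it differs from B6 at many loci, so a strain difference cannot be assigned to any single locus. The labels number the libraries without saying that each is a separate animal, and p-values therefore measure the spread between libraries, whatever its source.

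Matricellular proteins are secreted into the matrix but act mainly by changing how cells attach, move and respond to growth factors, and many are scarce in resting adult tissue and abundant in wounds. Postn, Tnc, Sparc and the thrombospondins belong to this class in the strict sense. Fibronectin is a structural glycoprotein that cells assemble into the fibrils on which collagen is laid down, and biglycan, decorin, lumican and fibromodulin are small leucine-rich proteoglycans, which bind collagen fibrils and, in part, transforming growth factor beta (TGF-beta). In skeletal muscle most of these proteins are made by fibroblasts and related stromal cells between the fibers, and fibromodulin is best known from tendon.

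On the mouse genome build GRCm39, Fn1 lies at chr1:71624673-71692419 on the minus strand and its canonical transcript has 46 exons. Postn lies at chr3:54268501-54298471 on the plus strand (21 exons) and Tnc at chr4:63878014-63965443 on the minus strand (26 exons). Sparc lies at chr11:55285317-55314067 on the minus strand (10 exons). The paralogs Thbs1 and Thbs2 sit on different chromosomes, at chr2:117941974-117957616 on the plus strand and chr17:14885761-14914528 on the minus strand, and each has 22 exons. Bgn lies at chrX:72527208-72539541 on the plus strand (8 exons). Dcn (chr10:97315275-97358155, plus strand, 8 exons) and Lum (chr10:97400990-97408577, plus strand, 3 exons) are neighbors, 42835 bp apart, and the next gene after Lum, 34151 bp further on, is Kera, which encodes the related proteoglycan keratocan. Fmod lies at chr1:133964992-133976015 on the plus strand (3 exons).

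Promoter sequence was available in a RefSeq table, made on GRCm38.p6, for 6 of the 10 genes, and each window was matched exactly in GRCm39. Fn1, Thbs1, Dcn and Lum were missing from that table. The 250 bases before the RefSeq start are shown for Postn and Thbs2, which rose after PE in both strains, and for Fmod, which did not. All are written 5′ to 3′ on the strand of the gene, and capitals mark a match to TATAAA on either strand.

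Postn, chr3:54268278-54268527, plus strand: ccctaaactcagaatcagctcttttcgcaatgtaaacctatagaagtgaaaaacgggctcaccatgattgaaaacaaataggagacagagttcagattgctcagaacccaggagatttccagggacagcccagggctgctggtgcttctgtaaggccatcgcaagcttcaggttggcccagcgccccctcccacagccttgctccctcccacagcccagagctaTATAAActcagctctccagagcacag

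Thbs2, chr17:14914525-14914774, minus strand: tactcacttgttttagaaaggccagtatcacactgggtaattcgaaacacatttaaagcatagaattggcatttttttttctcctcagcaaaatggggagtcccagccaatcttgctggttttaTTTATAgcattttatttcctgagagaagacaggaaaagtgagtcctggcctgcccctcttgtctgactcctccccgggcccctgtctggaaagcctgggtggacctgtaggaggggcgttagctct

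Fmod, chr1:133964742-133964991, plus strand: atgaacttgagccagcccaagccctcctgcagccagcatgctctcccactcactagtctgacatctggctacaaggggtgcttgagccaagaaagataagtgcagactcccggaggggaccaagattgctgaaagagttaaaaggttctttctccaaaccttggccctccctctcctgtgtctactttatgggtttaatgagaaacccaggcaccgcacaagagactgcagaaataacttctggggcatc

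The Postn window shown held TATAAA on the gene's own strand, beginning at position -26 from the RefSeq start, and the Thbs2 window held it on the opposite strand, read here as TTTATA, beginning at position -126. The Fmod window held none of the 4 motifs searched on both strands. Of all 32851 RefSeq windows of this length, 12.4% held TATAAA, 32.7% held GGGCGG (the core of the Sp1 motif), 6.75% held TGANTCA (the AP-1 motif) and 12.6% held GGAATG (the TEAD motif), the other 3 motifs searched. Among the windows not shown, another for Postn, at chr3:54266438-54266687, and the window for Sparc held none of the 4 motifs. Each Tnc window held TATAAA and GGGCGG, and the Bgn window held GGGCGG but not TATAAA. The Postn window shown reaches 27 bases past the start of the canonical transcript in the GRCm39 annotation. A match is a description of the letters only.

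Expression is given as log2 CPM, the deposited, TMM-scaled share of a library's reads that fell on a gene, on a log2 scale, so a difference of 1 is a 2-fold difference. The deposited values are scaled and do not carry read totals, and counting error is not given here. All 24 libraries had the profile of skeletal muscle: none of the 10 muscle fiber markers was at 0 in any library, and their summed level ran from 38730 to 253152 CPM. The MRL PE library 2 stood apart, with the lowest muscle fiber sum and the highest fibroblast marker sum of the 24, and B6 PE library 2 had the next lowest muscle fiber sum, 66621 CPM. MRL PE library 2 was also the highest of 24 for 8 of the 10 genes described here, and results that rest on it are given with and without it.

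Compared per kilobase of canonical transcript, the 10 genes spanned a wide range of levels in uninjured muscle. Sparc had the highest median, at 131 CPM per kb over the 6 uninjured libraries of both strains, but in MRL uninjured libraries 1 and 2, where its lowest value was 15.3 CPM per kb, it lay below the lowest Dcn value of the 6, 27.6 CPM per kb. Dcn followed at 36.7, Fmod at 27.8, Bgn at 25.2, Lum at 19.8, Fn1 at 16.2 and Postn at 12.9 CPM per kb, and the ranges of neighbors in this order overlapped. Thbs2, Thbs1 and Tnc were lowest, at 3.04, 2.35 and 1.20 CPM per kb. No uninjured library had Thbs2 above 3.96 CPM per kb, below the lowest value of each of the other 7 genes, of which the smallest was 6.15 CPM per kb, for Fmod. In the 6 PE libraries the order differed: Sparc again had the highest median at 379 CPM per kb, followed by Bgn at 78.8, Fn1 at 71.1, Postn at 66.4, Dcn at 63.1, Lum at 52.0 and Fmod at 28.9, with Thbs2 at 10.2, Thbs1 at 6.49 and Tnc at 6.03.

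**Figure D1:**
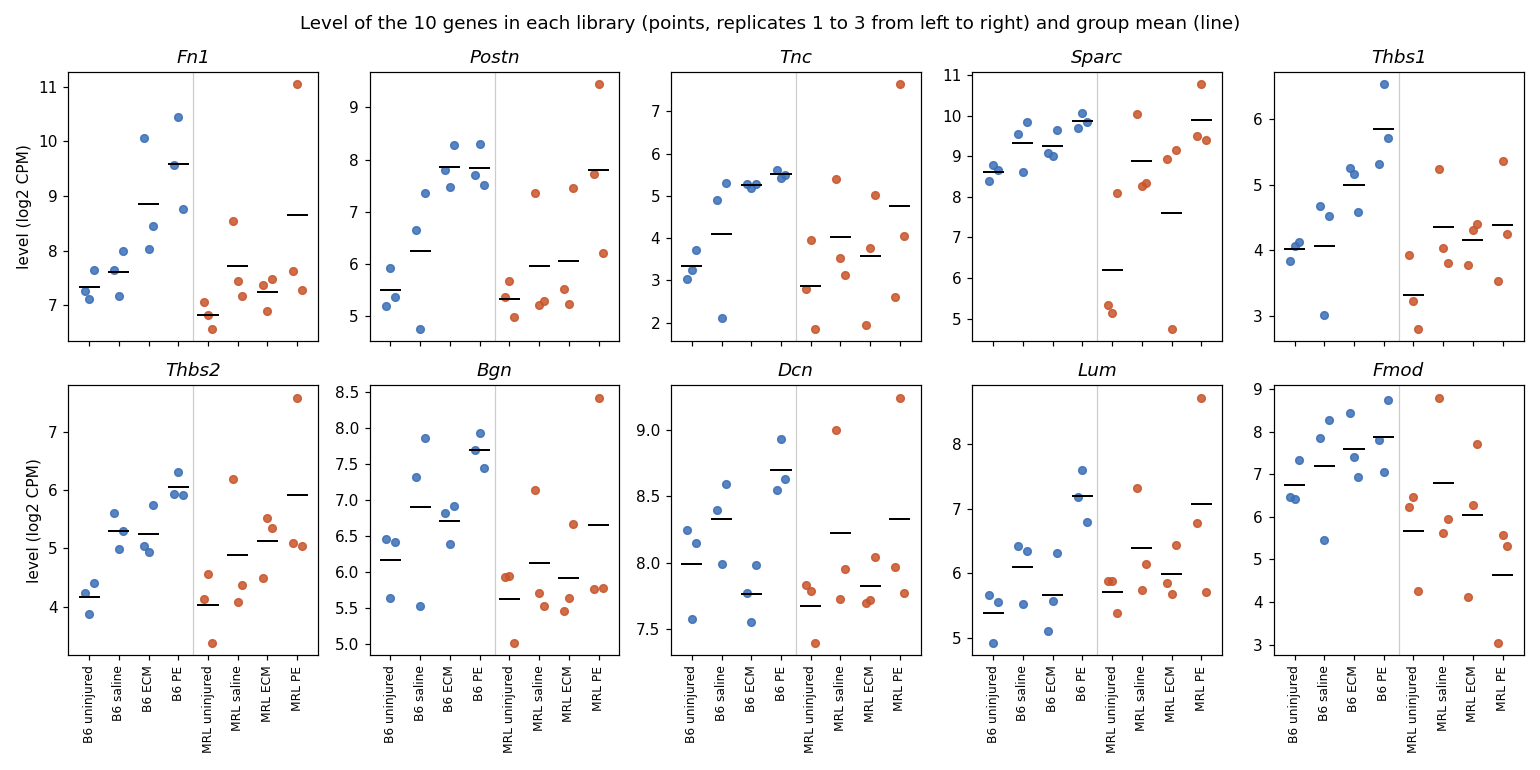
Level of each of the 10 genes in every library, in log2 CPM on the vertical axis, by strain and treatment. Points are libraries 1 to 3 from left to right in each group and lines are group means. In B6 the 3 PE libraries lie above all uninjured libraries for 9 genes, whereas in MRL, PE library 2 lies far above the other two for most genes. The share of all genes with such a gap in B6 is not given.

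Fibronectin ranged from 6.57 to 11.05 log2 CPM. In B6, its level in libraries 1, 2 and 3 was 7.27, 7.11 and 7.65 log2 CPM in uninjured muscle, 7.65, 7.17 and 8.0 after saline, 10.07, 8.04 and 8.46 after ECM, and 9.57, 10.45 and 8.77 after PE. In MRL it was 7.06, 6.82 and 6.57 in uninjured muscle, 8.55, 7.45 and 7.17 after saline, 7.37, 6.90 and 7.48 after ECM, and 7.63, 11.05 and 7.28 after PE. All B6 ECM and PE libraries were thus above all B6 uninjured libraries, and in MRL the PE libraries were above the uninjured ones, though libraries 1 and 3 by little.

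Periostin binds collagen and integrins and is a common marker of activated fibroblasts. In B6, Postn was at 5.20, 5.92 and 5.36 log2 CPM in uninjured muscle, 6.64, 4.75 and 7.36 after saline, 7.79, 7.47 and 8.29 after ECM, and 7.71, 8.30 and 7.51 after PE. In MRL it was at 5.36, 5.67 and 4.98 in uninjured muscle, 7.36, 5.22 and 5.29 after saline, 5.52, 5.23 and 7.45 after ECM, and 7.72, 9.45 and 6.22 after PE. The B6 ECM and PE means lay close together, at 7.85 ± 0.41 and 7.84 ± 0.41 log2 CPM (SD, n = 3), while in MRL the ECM mean was 6.07 ± 1.21 and the PE mean 7.80 ± 1.62 (SD, n = 3). Saline libraries were the most spread of the B6 groups.

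Tenascin C is a large glycoprotein that appears around healing wounds. In B6, Tnc was at 3.04, 3.24 and 3.72 log2 CPM in uninjured muscle, 4.90, 2.11 and 5.31 after saline, 5.29, 5.20 and 5.29 after ECM, and 5.63, 5.43 and 5.49 after PE. MRL libraries held 2.79, 3.95 and 1.85 in uninjured muscle, 5.41, 3.53 and 3.13 after saline, 1.95, 3.76 and 5.02 after ECM, and 2.60, 7.65 and 4.05 after PE. The B6 ECM and PE libraries were tight, with SDs of 0.05 and 0.10, whereas the MRL PE libraries, which included the highest value of the 24, had an SD of 2.60 (n = 3 for each).

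Sparc encodes a collagen-binding protein also made by endothelial cells. In B6, Sparc was at 8.39, 8.78 and 8.67 log2 CPM in uninjured muscle, 9.53, 8.60 and 9.85 after saline, 9.09, 8.99 and 9.64 after ECM, and 9.71, 10.07 and 9.84 after PE. In MRL the values were 5.34, 5.15 and 8.08 in uninjured muscle, 10.03, 8.26 and 8.33 after saline, 8.93, 4.75 and 9.16 after ECM, and 9.50, 10.77 and 9.39 after PE. MRL uninjured libraries 1 and 2 and MRL ECM library 2 were far below the rest, at 4.75 to 5.34 log2 CPM (26.8 to 40.3 CPM), while the other 9 MRL libraries were at 8.08 to 10.77 log2 CPM. In those 3 low libraries Col1a1 was at 8.28 to 8.59, Col3a1 at 9.00 to 9.53 and Dcn at 7.72 to 7.83 log2 CPM, all inside the range of the other MRL libraries. Sparc results in MRL are given with and without the 3 libraries.

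The thrombospondins bind CD36, CD47 and integrins, and Thbs1 can activate latent TGF-beta. In B6, Thbs1 was at 3.84, 4.07 and 4.13 log2 CPM in uninjured muscle, 4.68, 3.02 and 4.52 after saline, 5.25, 5.17 and 4.59 after ECM, and 5.31, 6.53 and 5.71 after PE. For MRL they were 3.93, 3.22 and 2.80 in uninjured muscle, 5.24, 4.04 and 3.81 after saline, 3.78, 4.31 and 4.40 after ECM, and 3.53, 5.36 and 4.25 after PE. Thbs1 had its highest value of the 24 in B6 PE library 2. In B6, Thbs2 was at 4.23, 3.87 and 4.40 log2 CPM in uninjured muscle, 5.61, 4.99 and 5.30 after saline, 5.04, 4.94 and 5.75 after ECM, and 5.93, 6.31 and 5.91 after PE. The MRL values were 4.13, 4.56 and 3.38 in uninjured muscle, 6.19, 4.08 and 4.38 after saline, 4.50, 5.53 and 5.34 after ECM, and 5.10, 7.59 and 5.05 after PE. Every injured B6 library, saline included, had more Thbs2 than every uninjured B6 library.

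Biglycan and decorin are close relatives that bind collagen and TGF-beta. In B6, Bgn was at 6.45, 5.63 and 6.41 log2 CPM in uninjured muscle, 7.32, 5.52 and 7.86 after saline, 6.81, 6.38 and 6.92 after ECM, and 7.69, 7.93 and 7.45 after PE. MRL libraries held 5.93, 5.94 and 5.02 in uninjured muscle, 7.14, 5.71 and 5.53 after saline, 5.45, 5.64 and 6.66 after ECM, and 5.77, 8.42 and 5.77 after PE. Outside PE library 2 and saline library 1, MRL muscle held Bgn within the range of the uninjured B6 and MRL libraries or slightly above it. Dcn varied least of the 10 genes, with group means that spanned 1.03 log2 units. It was at 8.25, 7.57 and 8.14 log2 CPM in uninjured B6 muscle and 8.55, 8.93 and 8.63 after PE, and at 7.83, 7.79 and 7.40 in uninjured MRL muscle and 7.96, 9.25 and 7.77 after PE. Saline gave 8.40, 7.99 and 8.59 in B6 and 9.00, 7.73 and 7.95 in MRL, and ECM gave 7.77, 7.55 and 7.98 in B6 and 7.70, 7.72 and 8.04 in MRL.

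Lumican and fibromodulin share a binding site on collagen and regulate how thick its fibrils grow. In B6, Lum was at 5.67, 4.92 and 5.55 log2 CPM in uninjured muscle, 6.41, 5.52 and 6.34 after saline, 5.10, 5.57 and 6.31 after ECM, and 7.18, 7.60 and 6.80 after PE. In MRL the values were 5.87, 5.89 and 5.39 in uninjured muscle, 7.31, 5.74 and 6.13 after saline, 5.85, 5.68 and 6.43 after ECM, and 6.77, 8.72 and 5.71 after PE. The B6 PE libraries were above every other B6 library. Fmod had another pattern. In B6 it was at 6.47, 6.42 and 7.34 log2 CPM in uninjured muscle, 7.84, 5.45 and 8.28 after saline, 8.45, 7.40 and 6.92 after ECM, and 7.81, 7.05 and 8.74 after PE. For MRL they were 6.23, 6.48 and 4.27 in uninjured muscle, 8.80, 5.62 and 5.96 after saline, 4.12, 6.29 and 7.70 after ECM, and 3.05, 5.58 and 5.31 after PE. All 3 MRL PE libraries were below all 3 B6 PE libraries, and the highest and lowest Fmod values of the 24 were both in MRL.

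In several groups the genes moved together from library to library. They did so less in uninjured B6 muscle, where libraries 1, 2 and 3 were the highest of their group for 3, 2 and 5 genes. MRL PE library 2 was the highest of its group for 10 of 10 genes and lay 1.58 log2 units above its group mean when averaged over them. MRL saline library 1 was the highest of its group for 10 of 10 genes (1.17 above), and MRL ECM library 3 for 9 of 10 (0.81 above). B6 saline library 2 was the lowest of its group for 10 of 10 genes and lay 1.01 log2 units below it, and MRL uninjured library 3 was the lowest for 9 of 10. The genes of 1 library share its tissue piece and its scaling, so they are not independent measurements. The summed CPM of the 13 fibroblast markers, which include the fibrillar collagens, moved alongside: it was 17037 in MRL PE library 2 against 2891 and 2197 in the other two, 5800 in MRL saline library 1 against 1429 and 1623, and 2076 in B6 saline library 2 against 3965 and 4372. The part of tissue composition in these deviations was not tested, and in bulk muscle fewer cells of a type and less RNA per cell cannot be told apart.

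**Figure D2:**
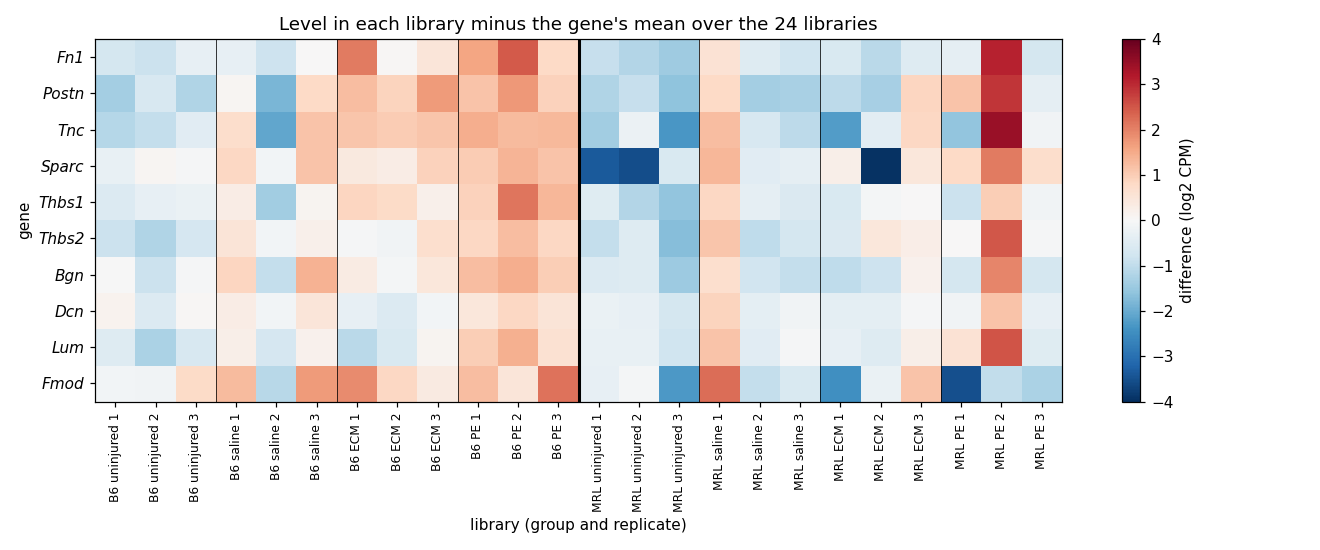
Level of each gene in each library minus the gene's mean over the 24 libraries, in log2 units, shown as color from blue (lower) to red (higher), with libraries on the horizontal axis and genes on the vertical axis. The 3 B6 PE libraries, B6 saline library 3 and MRL saline library 1 are above the mean for all 10 genes, and MRL PE library 2 is above it for 9, with Fmod below.

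The next comparisons asked which of the genes changed after injury and which filling changed them. Averaged over both strains, 9 of the 10 genes were higher after PE than in uninjured muscle by limma at an adjusted p under 0.05, where 44.0% of all 14159 genes were called in either direction and 23.5% were called higher. The median log2 fold change of the 10 genes was 1.73, beside 0.04 over all genes. Periostin rose 5.29-fold (log2 2.40 ± 0.53 SE, adjusted p = 0.0027) and Thbs2 3.69-fold (1.89 ± 0.40, adjusted p = 0.00226). Fn1 rose 4.12-fold (2.04 ± 0.50, adjusted p = 0.00473), Tnc 4.11-fold (2.04 ± 0.72, adjusted p = 0.0292) and Thbs1 2.74-fold (1.45 ± 0.34, adjusted p = 0.00384). Sparc rose 5.58-fold (2.48 ± 0.63, adjusted p = 0.00536), and 1.53 ± 0.39 on the log2 scale (adjusted p = 0.0161) without the 3 libraries with low Sparc.

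Among the proteoglycans, Bgn and Dcn rose less on average than each of the genes above, whereas Lum rose more than Thbs1. Lum rose 2.99-fold (log2 1.58 ± 0.38 SE, adjusted p = 0.00451), Bgn 2.42-fold (1.28 ± 0.45, adjusted p = 0.0281) and Dcn 1.61-fold (0.69 ± 0.24, adjusted p = 0.027). Fmod was not called (0.06 ± 0.69, adjusted p = 0.95), and its 95% interval ran from -1.39 to 1.5. The exact permutation test of single genes, 6 libraries against 6 with strain held fixed, cannot go below 0.005. This exact permutation test gave p = 0.005 for Fn1, Postn, Sparc and Thbs2, 0.01 for Thbs1, 0.015 for Dcn and Lum, 0.02 for Tnc, 0.03 for Bgn and 0.94 for Fmod. Without MRL PE library 2, 6 of 10 genes were called, namely Fn1, Postn, Sparc, Thbs1, Thbs2 and Lum, and the median fell to 1.26. Tnc was then at 1.32 ± 0.60 (adjusted p = 0.0965), Bgn at 0.83 ± 0.37 (adjusted p = 0.0926) and Dcn at 0.46 ± 0.20 (adjusted p = 0.0863), while Fn1 was at 1.44, Postn at 1.99, Sparc at 2.26, Thbs1 at 1.21, Thbs2 at 1.47 and Lum at 1.17 on the log2 scale. The Tnc call was also lost without B6 uninjured library 1, B6 PE library 2 or MRL uninjured library 1 or 3. The count was also 6 without B6 PE library 2 or MRL uninjured library 3. For this and later counts from fits without a library, the share of all genes called in the same fit is not given here. Such a count is a description only.

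**Figure D3:**
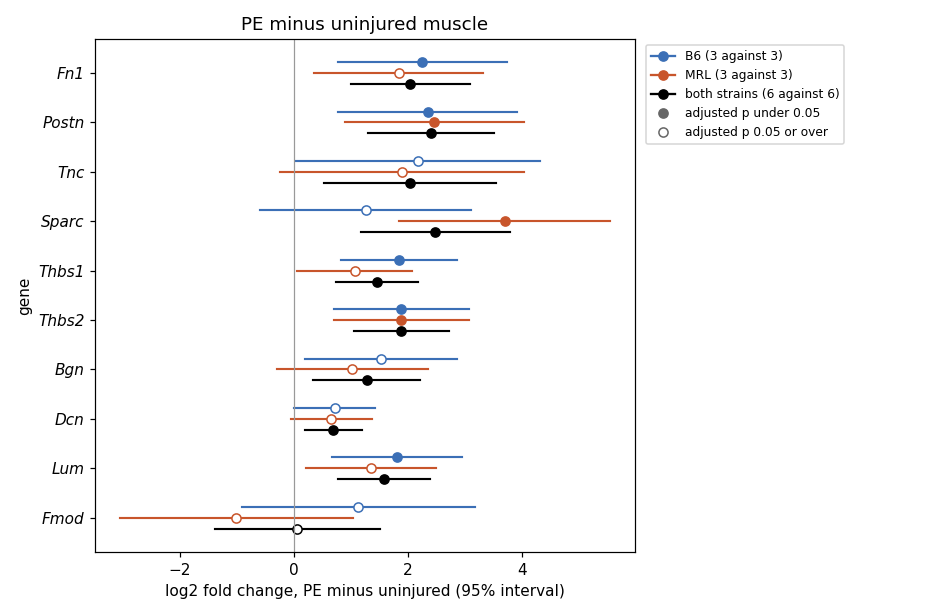
Log2 fold change of each gene between PE and uninjured muscle within B6, within MRL and averaged over strains, on the horizontal axis, with 95% intervals from the limma fit; filled points have an adjusted p under 0.05. The averaged value is filled for 9 genes and open, at 0.06, for Fmod.

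Within B6, 5 of the 10 genes were higher after PE than in uninjured muscle, where limma called 24.8% of all genes and called 14.7% higher. These were Postn (5.09-fold, log2 2.35 ± 0.75 SE, adjusted p = 0.0313), Fn1 (4.76-fold, 2.25 ± 0.71, adjusted p = 0.0299), Thbs2 (3.69-fold, 1.88 ± 0.57, adjusted p = 0.0242), Thbs1 (3.58-fold, 1.84 ± 0.48, adjusted p = 0.0141) and Lum (3.5-fold, 1.81 ± 0.54, adjusted p = 0.0247). The PE libraries lay above all uninjured libraries for 9 genes, all but Fmod, and the exact permutation p was 0.1 for each called gene, the smallest that 3 against 3 allows. For this and later counts of genes without overlap between groups, the share of all genes is not given here, so such a count is a description only. The median log2 fold change of the 10 was 1.82, with a range of 0.72 to 2.35. The count of calls depended on single libraries: it was 0 without B6 PE library 2, 1 without B6 PE library 1 or B6 uninjured library 3, and 2 without B6 uninjured library 1 or 2. Leaving out MRL PE library 2, which enters this comparison through the shared estimate of the spread, raised the count to 8 by adding Tnc, Bgn and Dcn. The share of all genes called in that fit is not given here.

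Within MRL, 3 of the 10 genes were higher after PE than in uninjured muscle, where 9.73% of all genes were called and 5.95% were called higher. These were Sparc (13-fold, log2 3.70 ± 0.88 SE, adjusted p = 0.0448), Postn (5.51-fold, 2.46 ± 0.75, adjusted p = 0.0476) and Thbs2 (3.70-fold, 1.89 ± 0.57, adjusted p = 0.0474), each with an exact permutation p of 0.1. Without the 3 libraries with low Sparc, the Sparc difference was 1.81 ± 0.64 (adjusted p = 0.151). Fn1 also had PE libraries above all uninjured ones. The median over the 10 genes was 1.59, and 9 of the 10 were higher, with Fmod the exception. Without MRL PE library 2 no gene was called and the median was 0.55. The count was also 0 without MRL uninjured library 1 or 3 and 1 without MRL uninjured library 2, while it was 6 without MRL PE library 1 and 5 without MRL PE library 3.

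The saline injury alone gave smaller differences from uninjured muscle. In B6, limma called none of the 10 genes and 0% of all genes, and 0 of the 10 had an unadjusted p under 0.05. Thbs2 had the smallest p, with a log2 difference of 1.13 ± 0.57 SE (adjusted p = 0.42), and all 10 genes were higher on average, with a median of 0.71. In MRL, 0 of 10 genes and 0% of all genes were called, 2 of the 10 had an unadjusted p under 0.05, and the median was 0.88. Sparc had the smallest p there (2.68 ± 0.88, adjusted p = 1), and its difference was 0.79 without the 3 libraries with low Sparc. Averaged over strains, 0 of 10 and 0% of all genes were called, 2 of the 10 had an unadjusted p under 0.05, and Sparc again came first (1.70 ± 0.63, adjusted p = 0.384, exact permutation p = 0.02), at 0.75 without the low libraries. An alternative limma fit left out the trend in the estimate of the spread. In it, 1684, 448 and 1514 of the 14159 genes had an unadjusted p under 0.05 in B6, in MRL and averaged over strains. Here and below, such counts over all genes come from another fit than those of the 10 genes and are only a rough background.

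None of the 10 genes was called between ECM and uninjured B6 muscle, where 0.424% of all genes were, and 2 had an unadjusted p under 0.05. Postn was 5.12-fold higher (log2 2.36 ± 0.75 SE, adjusted p = 0.148), a difference as large as after PE that did not pass the threshold in this comparison. All 3 ECM libraries were above all 3 uninjured libraries for Fn1, Postn, Tnc, Sparc, Thbs1 and Thbs2, and for none of the proteoglycans. Bgn and Fmod overlapped, and so did Dcn and Lum, whose ECM means were 7.77 and 5.66 against 7.99 and 5.38 log2 CPM in uninjured muscle. The share of all genes without overlap is not given here either, so this split of the 10 genes is a description only. In MRL, 0 of 10 genes and 0.0141% of all genes were called between ECM and uninjured muscle, 0 of the 10 had an unadjusted p under 0.05, the median was 0.57, and Thbs2 had the smallest p (1.10 ± 0.57, adjusted p = 1). Averaged over strains, 0 of 10 and 0.141% of all genes were called, 3 of the 10 had an unadjusted p under 0.05, and Postn led with a 2.92-fold difference (1.54 ± 0.53, adjusted p = 0.167, exact permutation p = 0.025). In the limma fit without the trend, 2313, 538 and 2411 of the 14159 genes had an unadjusted p under 0.05 in B6, in MRL and averaged over strains.

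The fillings were then compared with the saline injury and with each other. These comparisons share libraries with those above, so their values are given side by side and are not independent. For PE minus saline averaged over strains, 24.2% of all genes were called and 15.0% were called higher. Of the 10 genes, 2 were called higher, a share near the latter. They were Postn (3.28-fold, log2 1.71 ± 0.53 SE, adjusted p = 0.0268, exact permutation p = 0.035) and Fn1 (2.75-fold, 1.46 ± 0.50, adjusted p = 0.0423, exact permutation p = 0.055). In B6, Thbs1 alone was called between PE and saline (3.44-fold, 1.78 ± 0.48, adjusted p = 0.0385, exact permutation p = 0.1), where 5.97% of all genes were called and 5.37% were called higher, and the call was lost without any of the 6 libraries other than B6 PE library 3. The B6 PE libraries lay above all B6 saline libraries for 6 genes, Fn1, Postn, Tnc, Thbs1, Thbs2 and Lum. In MRL, 0 of 10 and 0% of all genes were called between PE and saline and 2 of the 10 had an unadjusted p under 0.05, with Postn first (1.84 ± 0.75, adjusted p = 0.165). The limma fit without the trend gave 3212 of the 14159 genes an unadjusted p under 0.05 in this MRL comparison. Fmod was the only gene of the 10 whose MRL PE libraries were all below the MRL saline libraries, at means of 4.65 and 6.79 log2 CPM. Without MRL PE library 2 the MRL median went from 0.70 to -0.31. The averaged comparison had 0 calls without MRL PE library 2, B6 PE library 2, B6 saline library 2 or MRL saline library 2 or 3, and 3 without B6 saline library 3 or MRL PE library 1, 4 without MRL PE library 3 and 5 without MRL saline library 1.

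PE minus ECM averaged over strains had Lum (2.47-fold, log2 1.31 ± 0.38 SE, adjusted p = 0.0225, exact permutation p = 0.02) and Dcn (1.65-fold, 0.72 ± 0.24, adjusted p = 0.0355, exact permutation p = 0.025) called higher, 2 of 10 genes, where 24.9% of all genes were called and 14.7% were called higher. This count is near the share of all genes called higher. Lum and Dcn are the neighboring pair on chromosome 10. Within B6, 0 of 10 and 0.226% of all genes were called, 2 of the 10 had an unadjusted p under 0.05, and Lum came first (1.53 ± 0.54, adjusted p = 0.141). Within MRL, 0 of 10 and 0% of all genes were called, 2 of the 10 had an unadjusted p under 0.05, and Sparc came first (2.28 ± 0.88, adjusted p = 0.113). In the limma fit without the trend, 2827 of the 14159 genes had an unadjusted p under 0.05 in B6 and 3920 in MRL. The Sparc difference was 0.85 without the libraries with low Sparc, of which MRL ECM library 2 enters here. Without MRL PE library 2 the MRL median went from 0.93 to -0.00173, and without MRL PE library 3 there were 2 calls. The averaged comparison had 0 calls without MRL PE library 2, B6 PE library 2, B6 ECM library 1 or 2 or MRL ECM library 2, 1 without MRL ECM library 1, and 3 without MRL ECM library 3 or MRL PE library 3. None of the 10 was called between ECM and saline in B6 (0.0283% of all genes, Postn 1.60 ± 0.75, adjusted p = 1), in MRL (0.00706% of all genes, Sparc -1.26 ± 0.88, adjusted p = 1) or averaged over strains (0.0283% of all genes, Dcn -0.48 ± 0.24, adjusted p = 0.919), and 1, 0 and 0 of the 10 had an unadjusted p under 0.05. The Sparc difference in MRL was 0.17, of the opposite sign, without the 3 libraries with low Sparc. For ECM minus saline, 558, 510 and 785 of the 14159 genes had an unadjusted p under 0.05 in B6, in MRL and averaged over strains, by limma without the trend.

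MRL and B6 were compared in each condition to ask whether the strains differed. Over all treatments, 12 libraries against 12, Fmod was lower in MRL (0.338-fold, log2 -1.56 ± 0.49 SE, adjusted p = 0.0366, permutation p = 0.0101), the only gene of the 10 called, where 15.2% of all genes were called and 7.87% were called lower. This count of 1 in 10 is near the share of all genes called lower. The median log2 difference of the 10 genes was -0.71, and 9 were lower in MRL on average. The Fmod difference ran from -1.81 to -1.32 over the 24 fits that left out 1 library. Its call was lost in 12 of them, those without B6 ECM 1, B6 uninjured 3, B6 PE 1 or 3, B6 saline 1 or 3, MRL ECM 1 or 2, MRL uninjured 3, MRL PE 1, or MRL saline 2 or 3. The count of called genes was 2 without MRL ECM library 3 or MRL saline library 1 and 3 without B6 saline library 2. Without MRL PE library 2, 6 genes were called lower in MRL: Fn1 (-1.04), Tnc (-1.11), Sparc (-1.23), Thbs1 (-0.80), Bgn (-1.01) and Fmod (-1.68 on the log2 scale). The share of all genes called without that library is not given here, so this count is a description only. Without the 3 libraries with low Sparc, the Sparc difference between strains was -0.29.

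After PE the strains differed most for Fmod, at 4.65 ± 1.39 log2 CPM in MRL and 7.87 ± 0.85 in B6 (SD, n = 3). The difference of -3.22 ± 0.98 SE (0.107-fold) had an adjusted p of 0.0771 and was not called, and none of the other genes was, where limma called 3.35% of all genes and 2 of the 10 had an unadjusted p under 0.05. By limma without the trend, 2671 of the 14159 genes had an unadjusted p under 0.05 here. Without MRL PE library 2, all 10 genes were lower in MRL PE than in B6 PE muscle, the median went from -0.56 to -1.45, and 5 genes were called: Fn1 (-2.14 ± 0.51, adjusted p = 0.0053), Thbs1 (-1.96 ± 0.49, adjusted p = 0.00673), Bgn (-1.92 ± 0.56, adjusted p = 0.0165), Dcn (-0.84 ± 0.30, adjusted p = 0.0475) and Fmod (-3.69 ± 1.09, adjusted p = 0.0183). The summed level of the 8 adipocyte markers was 10714 and 7329 CPM in MRL PE libraries 1 and 3 and 1116 CPM in MRL PE library 2, against 2133, 1288 and 2922 CPM in the B6 PE libraries, and its part in these differences was not tested. The fit without MRL PE library 2 compares 2 MRL libraries with 3 B6 libraries, and the library was left out after its values were seen. The share of all genes called in that fit is not given here, so its count of 5 is a description only.

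**Figure D4:**
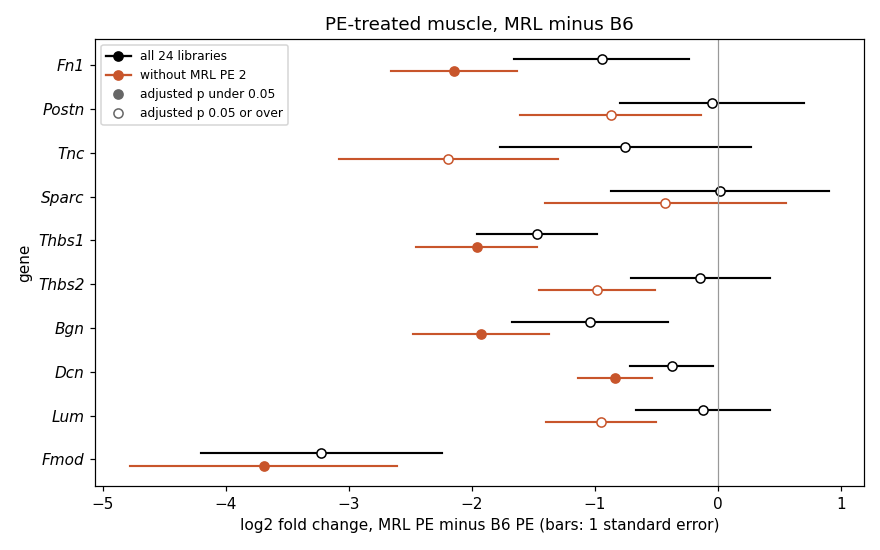
Log2 difference between MRL and B6 muscle after PE for each gene, with all 24 libraries and without MRL PE library 2; bars are 1 standard error from the limma fit and filled points have an adjusted p under 0.05. Values move down for all 10 genes without that library, from a median of -0.56 to -1.45, and 5 are filled.

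In the other conditions no gene was called between the strains. In uninjured muscle 2.60% of all genes were called, and 1 of the 10 had an unadjusted p under 0.05, namely Sparc (-2.42 ± 0.88 SE, adjusted p = 0.233), whose difference was -0.53 without the low libraries. After saline 2.51% of all genes were called, 0 of the 10 had an unadjusted p under 0.05, and Bgn had the smallest p (-0.77 ± 0.63, adjusted p = 0.653). After ECM 2.66% of all genes were called and 2 of the 10 had an unadjusted p under 0.05, with Postn first (-1.78 ± 0.75, adjusted p = 0.301). Fn1, Postn, Tnc and Thbs1 in MRL ECM muscle were below all B6 ECM libraries, and the median of the 10 was -1.20. By limma without the trend, 1543, 1847 and 1872 of the 14159 genes had an unadjusted p under 0.05 in uninjured, saline and ECM muscle. The strain difference of a treatment's own effect was tested as an interaction. Neither saline minus uninjured (Sparc 1.97 ± 1.25, adjusted p = 1, and 0.08 without the low libraries), ECM minus saline (Fn1 -1.72 ± 1.01, adjusted p = 1) nor PE minus saline (Thbs1 -1.76 ± 0.69, adjusted p = 0.988) had any of the 10 genes or of all genes called (0% each by limma), and 0, 0 and 1 of the 10 had an unadjusted p under 0.05. For these interactions, in the same order, 571, 336 and 604 of the 14159 genes had an unadjusted p under 0.05 by limma without the trend. The strain difference of PE minus uninjured was not tested, so calls within a single strain are not shown to differ between strains.

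Fmod is a gene of tendon as well as of muscle connective tissue, and the 7 tendon markers measured (Tnmd, Scx, Mkx, Kera, Chad, Cilp2 and Comp) moved with it. Their summed level after PE was 141, 91.4 and 289 CPM in B6 and 8.46, 39.3 and 27.6 CPM in MRL, so the groups did not overlap, as for Fmod. After saline it was 137, 24.5 and 219 CPM in B6 and 288, 48.9 and 40.0 CPM in MRL, with the lowest B6 and the highest MRL library being those that were also lowest and highest for Fmod. It was 207, 137 and 129 CPM in B6 ECM and 14.9, 48.2 and 232 CPM in MRL ECM muscle, and 49.2, 51.1 and 78.9 CPM in B6 and 46.8, 54.8 and 15.9 CPM in MRL uninjured muscle. Over all treatments 3 of the 7 were lower in MRL, where 7.87% of all genes were, and none was higher, with a median of -1.46: Chad (-2.02 ± 0.49 SE, adjusted p = 0.0083), Mkx (-1.50 ± 0.40, adjusted p = 0.016) and Comp (-1.46 ± 0.48, adjusted p = 0.047). The Comp call was lost in 18 of the 24 fits that left out 1 library, all but those without B6 PE 2, B6 saline 2, MRL ECM 3, MRL uninjured 2, MRL PE 2 or MRL saline 1. No tendon marker was at 0 in any library, 0 of 7 were called between PE and uninjured muscle averaged over strains (median 0.26), and 0 of 7 were called between the strains after PE, although 7 of 7 were lower in MRL (median -2.89). How much tendon each sample held, and its part in the Fmod difference, was not tested.

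The cell type markers around the genes also moved with PE. Averaged over strains, where 23.5% of all genes were called higher, 9 of 13 fibroblast markers were higher after PE than in uninjured muscle and none was lower, with a median log2 fold change of 1.03, led by the collagen gene Col3a1 (2.14 ± 0.46 SE, adjusted p = 0.0023) and the collagen cross-linking enzymes Loxl1 (1.03 ± 0.24, adjusted p = 0.0036) and Lox (1.75 ± 0.41, adjusted p = 0.0038). All 8 macrophage markers were higher, with a median of 2.90, led by C1qb (2.61 ± 0.37, adjusted p = 0.00065), Cd68 (4.21 ± 0.67, adjusted p = 0.00095) and Emr1 (3.20 ± 0.52, adjusted p = 0.00096). The summed fibroblast level was 5884, 9734 and 5568 CPM after PE against 1648, 1390 and 1988 CPM in uninjured muscle in B6, and 2891, 17037 and 2197 CPM against 1641, 2000 and 1128 CPM in MRL. The summed macrophage level was 2998, 5552 and 1553 CPM after PE in B6 and 248, 4685 and 247 CPM in MRL, against 142 to 191 CPM in uninjured B6 and 85.9 to 184 CPM in uninjured MRL muscle. MRL PE library 2 and B6 PE library 2 were each the highest of their group for the macrophage sum, the fibroblast sum and the sum of the 10 genes.

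Of the muscle fiber markers, 6 of 10 were lower after PE averaged over strains and none was higher (median -0.94). Of all genes, 44.0% were called in either direction in that comparison and 23.5% were called higher. The lower muscle fiber markers included Tnni2 (-1.02 ± 0.31, adjusted p = 0.013), Myh1 (-1.46 ± 0.50, adjusted p = 0.026) and Ttn (-1.03 ± 0.37, adjusted p = 0.032). Of 6 endothelial markers 2 were lower (Kdr and Tie1, median -0.44), of 6 smooth muscle and pericyte markers 1 was lower (Rgs5, median -0.39), and 0 of 8 adipocyte markers were called (median -0.71). Between the strains after PE, where 3.35% of all genes were called, 1 macrophage marker was lower in MRL (C1qb -2.10 ± 0.52, adjusted p = 0.028). The adipocyte marker Lep and the pericyte marker Cspg4 (2.24 ± 0.56, adjusted p = 0.031) were higher. The C1qb call was lost without B6 PE library 1 or 2 or MRL PE library 1 or 3. CPM values are shares of a total, and without scaling a library with less muscle fiber RNA has larger shares for all else. For PE minus uninjured averaged over strains, the median log2 fold change of all genes was 0.04 with TMM and 0.44 with equal library totals. How far TMM removes this effect in each library, and its part in the rise of the 10 genes, was not tested.

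**Figure D5:**
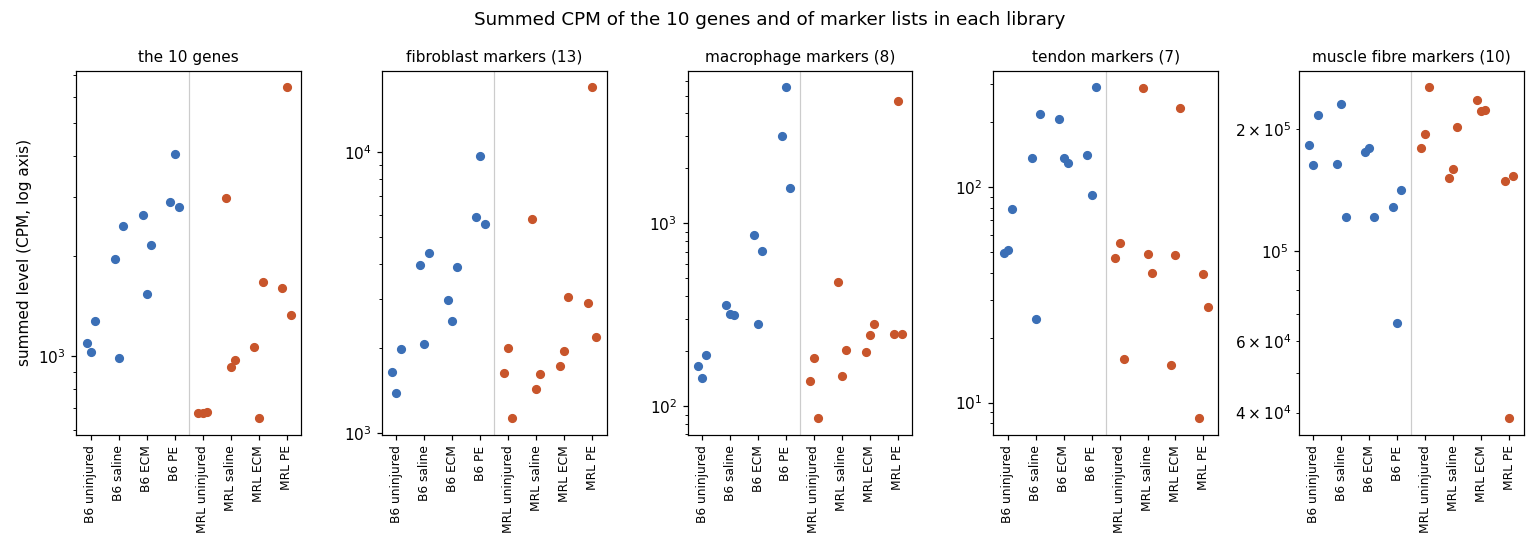
Summed CPM of the 10 genes and of the fibroblast, macrophage, tendon and muscle fiber markers in every library, on a log axis, by strain and treatment. MRL PE library 2 is the highest of its group for the 10 genes at 6419 CPM and for the fibroblast and macrophage sums, and the B6 PE libraries are at 2802 to 4063 CPM for the 10 genes.

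The summed level of the 10 genes gives 1 value per library. In B6 it was 1098, 1034 and 1276 CPM in uninjured muscle, 1957, 992 and 2456 CPM after saline, 2662, 1539 and 2152 CPM after ECM, and 2904, 4063 and 2802 CPM after PE. In MRL it was 676, 677 and 679 CPM in uninjured muscle, 2997, 929 and 974 CPM after saline, 1064, 652 and 1678 CPM after ECM, and 1605, 6419 and 1335 CPM after PE. Sparc and Fn1 make up much of these sums, so the low Sparc libraries lower them.

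Other genes of the pathway were read from lists of receptors, TGF-beta genes and further family members. Of 15 receptors of matricellular proteins, 8 were higher after PE than in uninjured muscle averaged over strains and none was lower (median 0.62). They were led by the heparan sulfate carrier Sdc1 (log2 2.36 ± 0.43 SE, adjusted p = 0.0012), the endocytic receptor Lrp1 (2.03 ± 0.37, adjusted p = 0.0012) and the thrombospondin receptor Cd47 (1.38 ± 0.26, adjusted p = 0.0013). Of 13 genes of TGF-beta ligands, receptors, latent binding proteins and early targets, 3 were higher, a share near the 23.5% of all genes called higher, and none was lower (median 0.49), namely the ligand Tgfb1 (2.43 ± 0.43, adjusted p = 0.0011) and the receptors Tgfbr2 (0.64 ± 0.21, adjusted p = 0.023) and Tgfbr1 (0.50 ± 0.17, adjusted p = 0.023). Of 31 other matricellular and small leucine-rich proteoglycan genes measured out of 34 listed, 9 were higher and 1 was lower (median 0.61). In either direction this was a smaller share than the 44.0% of all genes called, while the 9 called higher were a somewhat larger share than 23.5%. First were Wisp2 (2.20 ± 0.51, adjusted p = 0.0036), Tgfbi (1.44 ± 0.36, adjusted p = 0.0053) and Fbln1 (1.29 ± 0.34, adjusted p = 0.0071). Between PE and saline in B6, the bone matrix and macrophage protein osteopontin (Spp1, 5.99 ± 1.64, adjusted p = 0.039) was the only one of these 31 called, and this call too was lost without any of the 6 libraries other than B6 PE library 3.

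Between the strains over all treatments, 2 of the 31 other family genes were higher in MRL and 4 were lower, where 15.2% of all genes were called. Sparcl1, a relative of Sparc, was higher (0.69 ± 0.10 SE, adjusted p = 4.1e-05), while the calcification inhibitor Mgp (-1.78 ± 0.38, adjusted p = 0.0034) and the cartilage and tendon protein Chad, which is on both lists, were lower. The receptor gene Sdc4 and the TGF-beta gene Tgfb3 were lower in MRL, 2 macrophage markers (C1qb and Emr1) were lower, and 0 of 13 fibroblast markers were called.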

How the data were processed

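The authors aligned reads of polyA RNA libraries with kallisto to the mouse GRCm39 transcriptome, summed transcripts to genes with tximport, kept genes above 1 CPM in at least 3 libraries, scaled by TMM in edgeR and deposited log2 CPM values. The table held 14160 rows, of which 1 had no gene symbol and was left out. The values were fitted with limma 3.58.1 (R 4.3.3, trended empirical Bayes, 1 coefficient for each of the 8 groups, all 24 libraries), 2-sided, with Benjamini-Hochberg adjustment over 14159 genes in each of 26 comparisons and calls at an adjusted p under 0.05. CPM was recovered by undoing the log2 and subtracting the added prior of 0.0795 CPM. The fit was also run on simulated data in which genes and libraries were drawn independently. That run did not cover deviations shared by the genes of a library, and its outcome is not given here. The 10 genes, the lists and the tests were chosen with earlier results of these data known. Folds are named for called genes and, where none was called, for the gene with the smallest p, and at most 3 called genes are named per list and comparison. Single genes were checked by exact permutation tests of the log2 CPM. Same-numbered libraries deviated together, at correlations over 0.1 in all 3 numbers, only for MRL against B6 after PE (0.105, 0.532 and 0.439), and the fit of those 2 groups with the number as a block called none of the 10 genes (Thbs1 adjusted p = 0.0766). Alternatives were other scalings, a pseudocount, a filter, library weights, a replicate block, a sequencing index term, the compared groups alone and leaving out each library, and 2 further sets of left-out libraries were chosen after seeing the data. Gene positions are from GENCODE vM39.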

Additional observations from a re-analysis of the deposited data

How the results depend on the processing

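For PE minus uninjured averaged over strains, where 9 of 10 genes were called, no other scaling, filter or model moved the count by over 1.5 times. Leaving out 1 library of the compared groups gave 6 to 9. The other counts depended more on the fit, and the cause was not tested. With library weights, estimated gene by gene because the joint estimate did not converge, the counts of called genes in B6 were 1 for saline minus uninjured, 3 for ECM minus uninjured, 8 for PE minus uninjured, 3 for PE minus saline and 3 for PE minus ECM, in MRL 1 for PE minus saline and 1 for PE minus ECM, between strains 1 after saline, 2 after ECM, 8 after PE and 9 over all treatments, and 3 for ECM minus uninjured averaged over strains. With the compared groups alone they were 3 for ECM minus uninjured, 8 for PE minus uninjured and 0 for PE minus saline in B6, 0 for PE minus uninjured in MRL, and, averaged over strains, 3 for ECM minus uninjured, 0 for PE minus saline and 0 for PE minus ECM. With the second sequencing index as a term they were 2 for PE minus saline in B6 (Fn1 and Postn, with Thbs1 lost), 0 for PE minus uninjured in MRL, 1 between strains after PE, and 5 and 8 for PE minus saline and PE minus ECM averaged over strains. For PE minus uninjured in MRL the count was also 0 with quantile normalization, without the trend and with the replicate block. The index term also kept 4 of the 5 genes called for PE minus uninjured in B6, with Lum lost. The replicate block changed no other count of the 10 genes. Counts over all 14159 genes also moved with the fit. With library weights they were, in the order above, 1076, 2478, 7755, 3501, 3720, 2818, 2074, 2303, 2164, 6477, 7058 and 1679. With the compared groups alone they were 893, 4231, 707, 0, 1207, 133 and 610, and with the index term 857, 204, 372, 5488 and 5538. For PE minus uninjured in MRL they were 0, 0 and 9 with quantile normalization, without the trend and with the replicate block. Equal totals in place of TMM moved the median of all genes by up to 0.41 and quantile normalization moved it the other way: of the genes called between PE and uninjured muscle averaged over strains, 53.3% were higher, against 86.7% and 40.9% under these scalings, while the members' median stayed 1.69, 1.70 and 1.92 above that of all genes.

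A further 2 sets of libraries were left out after seeing the data. Without the 3 libraries with low Sparc, the counts were 0 for PE minus saline in B6, 0 for PE minus uninjured in MRL, and 1 and 0 for PE minus saline and PE minus ECM averaged over strains, and Sparc between ECM and saline in MRL reversed to 0.17, with a range of -2.04 to 0.17 when single libraries were left out. Without B6 saline library 2 and MRL PE library 2, the counts in B6 were 1 for saline minus uninjured, 1 for ECM minus uninjured, 8 for PE minus uninjured and 2 for PE minus ECM, 0 for PE minus uninjured in MRL, 1 between strains after saline, 6 after PE and 7 over all treatments, and, averaged over strains, 1, 3, 0 and 1 for saline minus uninjured, ECM minus uninjured, PE minus saline and PE minus ECM. With 1 library of the compared groups left out at a time, the number of called genes varied. In B6 it was 0 to 5 for PE minus uninjured and 0 to 1 for PE minus saline. In MRL it was 0 to 6 for PE minus uninjured and 0 to 2 for PE minus ECM. Between strains it was 0 to 5 after PE and 0 to 6 over all treatments. Averaged over strains it was 0 to 5 for PE minus saline and 0 to 3 for PE minus ECM. Without MRL PE library 2, outside the B6 comparisons, the B6 counts were 8, 2 and 2 for PE minus uninjured, saline and ECM. The share of all genes called in fits without a library is not given here. Each group had 3 libraries, and the counting error of low genes such as Tnc was not computed here.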
